A study of Homo sapiens with 18 samples.

Results

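Glucocorticoid receptor (GR) binding was examined at the 10 genes that encode the dual specificity phosphatases directed at MAP kinases (MKPs), namely DUSP1, DUSP2, DUSP4, DUSP5, DUSP6, DUSP7, DUSP8, DUSP9, DUSP10 and DUSP16, out of 19970 protein-coding genes. A GR-binding region (GBR) was assigned to a gene when its summit lay within 100 kb of the transcription start site (TSS) of the canonical transcript, a rule that used position alone. This gave 82 GBR over 6 lists, which joined into 33 separate loci. The GBR came from GR ChIP-seq in U2OS-GRα cells, an osteosarcoma line that stably expresses GRα, transfected with siRNA for 48 h and then given 100 nM dexamethasone (dex) for 1 h. All 6 groups had the same dex treatment, and there was no group without dex. The groups were siNS/siNS, in which both siRNA were nonspecific, siHic5/siNS, siCHD9/siNS, siBRM/siNS, siCHD9/siHic5 and siBRM/siHic5. Hic-5 is a coregulator that blocks GR binding at some sites, and CHD9 and BRM are chromatin remodelers. The study made 2 ChIP libraries and 1 input library per group, but each deposited list is a single set called on pooled replicates, so no value below has a replicate error and no difference between lists could be tested.

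MKPs remove phosphate from both the threonine and the tyrosine of the activation loop of MAP kinases and so switch off ERK, JNK and p38. DUSP1, DUSP2, DUSP4 and DUSP5 are inducible nuclear enzymes, DUSP6, DUSP7 and DUSP9 are cytoplasmic and prefer ERK, and DUSP8, DUSP10 and DUSP16 prefer JNK and p38. DUSP1 is a classical target of glucocorticoids, and its induction is part of how these hormones restrain inflammatory signaling.

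Of the 33 loci, 6 were called in at least 5 of the 6 lists, and their sequences are shown because they were the sites at which binding was least often missing. Each run is the 121 bp centered on the summit of the siHic5/siNS peak, in GRCh38. Capitals mark the 15 bases closest to the glucocorticoid response element (GRE) consensus, a palindrome of hexamers spaced by 3 bases to which a GR dimer binds.
DUSP1 98.1 kb upstream, chr5:172869216-172869336, + strand: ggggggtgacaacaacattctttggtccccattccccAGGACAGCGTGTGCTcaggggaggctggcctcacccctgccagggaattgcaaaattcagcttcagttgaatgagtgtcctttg
DUSP1 1.34 kb upstream, chr5:172772476-172772596, + strand: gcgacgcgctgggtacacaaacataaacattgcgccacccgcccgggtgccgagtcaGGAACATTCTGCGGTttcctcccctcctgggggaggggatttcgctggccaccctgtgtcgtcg
DUSP2 18.4 kb upstream, chr2:96163794-96163914, + strand: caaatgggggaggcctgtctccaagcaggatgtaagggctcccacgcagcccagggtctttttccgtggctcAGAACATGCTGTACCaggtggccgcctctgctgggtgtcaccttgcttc
DUSP5 1.42 kb upstream, chr10:110496430-110496550, + strand: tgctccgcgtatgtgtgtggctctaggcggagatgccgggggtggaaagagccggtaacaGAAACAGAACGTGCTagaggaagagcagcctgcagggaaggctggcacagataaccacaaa
DUSP6 18.4 kb upstream, chr12:89370878-89370998, + strand: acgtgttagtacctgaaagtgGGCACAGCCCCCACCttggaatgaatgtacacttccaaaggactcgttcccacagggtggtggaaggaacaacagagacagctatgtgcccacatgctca
DUSP10 98.0 kb upstream, chr1:221840022-221840142, + strand: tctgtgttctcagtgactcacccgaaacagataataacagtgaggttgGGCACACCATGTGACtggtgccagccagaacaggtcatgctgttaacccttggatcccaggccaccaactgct
The capitals in DUSP1 98.1 kb upstream and DUSP2 18.4 kb upstream had 0 mismatches at the 10 defined positions of the consensus. DUSP10 98.0 kb upstream had 1, DUSP1 1.34 kb upstream and DUSP5 1.42 kb upstream had 2, and DUSP6 18.4 kb upstream had 3. Taking the closest 15 bases whatever their number of mismatches was a step added after the data were seen.

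A GRE match was counted as the consensus with at most 1 mismatch, on either strand, in the 200 bp around the summit. Besides the 3 matches above, 5 loci held 1, and these are given as GRE sites alone, in capitals throughout.
DUSP1 24.4 kb upstream, chr5:172795594-172795608, + strand: GGAACATTCTGCCCC
DUSP2 22.9 kb downstream, chr2:96122570-96122584, + strand: AGGACACAGTGTCCC
DUSP2 46.4 kb downstream, chr2:96099029-96099043, + strand: GGGACAGTGTGTTCC
DUSP5 68.5 kb upstream, chr10:110429402-110429416, + strand: GGAACAAACTGATCC
DUSP10 84.9 kb upstream, chr1:221827046-221827060, + strand: AGCCCACATTGTTCT
The 2 sites downstream of DUSP2 had 0 mismatches and the other 3 had 1. Of the 14 loci called in siHic5/siNS only, 1 held a match, the locus 84.9 kb upstream of DUSP10.

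In siHic5/siNS a weak peak was also called at the promoters of 2 members, DUSP1 and DUSP2, and in no other list was a peak called there. By −log10 p-value these peaks ranked 9172 and 7488 of 9533. Their −log10 q-values were 9.40 and 11.9, below the lowest in siBRM/siHic5, 14.2. They were above the lowest in siNS/siNS (8.88), siCHD9/siNS (7.62), siCHD9/siHic5 (7.74) and siBRM/siNS (7.26). Whether the cutoff of a list accounts for a missing call was not tested. Because of these peaks, the 250 bases before each start, from the RefSeq promoter table (GRCh38.p14), are shown. They are read along the gene, with the 11 bases at the peak summit in capitals. The table held 8 of the 10 members, without DUSP4 and DUSP5.
DUSP1 promoter, chr5:172771196-172771445, − strand: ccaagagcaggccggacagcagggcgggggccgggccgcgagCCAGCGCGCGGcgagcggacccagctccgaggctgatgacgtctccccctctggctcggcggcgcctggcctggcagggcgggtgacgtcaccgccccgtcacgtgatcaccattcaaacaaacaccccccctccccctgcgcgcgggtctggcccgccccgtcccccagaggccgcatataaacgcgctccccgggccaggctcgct
DUSP2 promoter, chr2:96145441-96145690, − strand: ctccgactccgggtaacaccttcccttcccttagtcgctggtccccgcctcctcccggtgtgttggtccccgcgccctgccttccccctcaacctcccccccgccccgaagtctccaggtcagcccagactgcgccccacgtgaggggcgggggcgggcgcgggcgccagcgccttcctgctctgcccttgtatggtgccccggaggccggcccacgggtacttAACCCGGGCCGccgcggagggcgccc
The summits lay 203 bp before the start of DUSP1 and 21 bp before that of DUSP2. Neither promoter held a GRE match, an AP-1 match (TGACTCA or TGAGTCA) or an ETS match (CAGGAA or CCGGAA followed by a purine and a pyrimidine), on either strand. Over the 35116 promoters of the table, 2.8% held a GRE, 4.2% an AP-1 and 15.6% an ETS match. The DUSP6 promoter held 1 GRE match and had no peak in any list. The GC content of the 200 bp around the summit was 79.0% at the DUSP1 promoter and 75.5% at that of DUSP2, against a median of 48.5% over the whole siHic5/siNS list.

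The lists held 2582 GBR in siNS/siNS, 9533 in siHic5/siNS, 1415 in siCHD9/siNS, 2451 in siCHD9/siHic5, 1278 in siBRM/siNS and 3383 in siBRM/siHic5. They also differed in their lowest −log10 q-value, from 7.26 in siBRM/siNS to 14.2 in siBRM/siHic5. The read depth behind them is not in the lists, and a region without a call may still have carried GR below the cutoff. Heights were therefore ranked within a list, from 1 for the largest −log10 p-value. In places a common q-value cutoff was set, or a q-value was held against the lowest of another list. Read depth was not adjusted for there. A rank is to be read against the size of its own list.

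Around the MKP genes, the number of GBR was 11 in siNS/siNS and 33 in siHic5/siNS. It was 7 in siCHD9/siNS and 4 in siBRM/siNS, and 12 in siCHD9/siHic5 and 15 in siBRM/siHic5. Every one of the 33 loci was called after depletion of Hic-5 alone, and 14 of them were called in that list only. The number of lists was 2 at 5 loci, 3 at 7, 4 at 1, 5 at 3 and all 6 at 3. These numbers were not computed over the whole list, so they are not read as a trait of the MKP loci. Absent from siNS/siNS, siCHD9/siHic5 and siBRM/siHic5 together were 15 of the 33 loci, and 5609 of the 9533 GBR of the whole siHic5/siNS list.

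The number of MKP genes with any GBR moved with the q-value cutoff in some lists, siNS/siNS among them, and not in siHic5/siNS or siBRM/siHic5. As deposited, in siNS/siNS 7 of the 10 genes had a GBR, against 17.1% of all protein-coding genes, and in siHic5/siNS the number was again 7, against 43.7%. It was 5 in siCHD9/siNS (10.5% of all genes), 6 in siCHD9/siHic5 (16.5%), 3 in siBRM/siNS (9.95%) and 6 in siBRM/siHic5 (22.2%). In both siNS/siNS and siHic5/siNS the genes were DUSP1, DUSP2, DUSP4, DUSP5, DUSP6, DUSP7 and DUSP10. At a common −log10 q-value of at least 14.2, however, 4 genes had a GBR in siNS/siNS (6 GBR) and 7 in siHic5/siNS (25 GBR). At a −log10 q-value of at least 20 the numbers of genes were 2 and 7. The share over all genes was not recomputed at these cutoffs, so the drop in siNS/siNS cannot be compared with that of other genes. With the lists as deposited, the mean number per MKP gene was 1.1 in siNS/siNS and 3.3 in siHic5/siNS, where the means over all genes were 0.239 and 0.886. Neighboring genes share GBR, so the genes of this background are not independent.

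**Figure D1:**
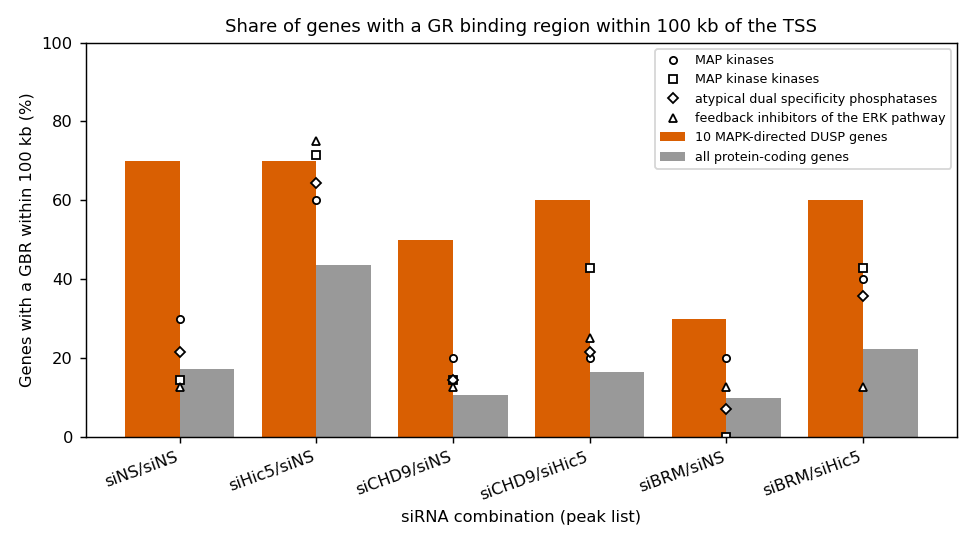
Percent of the 10 MKP genes and of all 19970 protein-coding genes that had at least 1 GBR in the 100 kb window around the TSS, for each of the 6 lists. The MKP genes range from 3 of 10 in siBRM/siNS to 7 of 10 in siNS/siNS and siHic5/siNS, and each list is 1 pooled value with no error.

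By role, the nuclear inducible genes held 26 of the 33 loci, of which DUSP5 alone held 13 and DUSP4 held 1. The cytoplasmic ERK-selective genes held 5 and the JNK and p38-selective genes 2. With siBRM/siNS, 4 GBR remained and all of them lay at nuclear inducible genes, which already held 8 of the 11 GBR in siNS/siNS. Of the 33 loci, 25 lay upstream of the TSS and 8 downstream, and 31 summits lay outside protein-coding genes of GENCODE 44. The MKP gene was the nearest protein-coding TSS for 26 loci and another gene was nearest for 7. These positions were not counted over the whole list, so they are not read as a trait of the MKP loci. Proximity does not show which gene a GBR acts on.

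**Figure D2:**
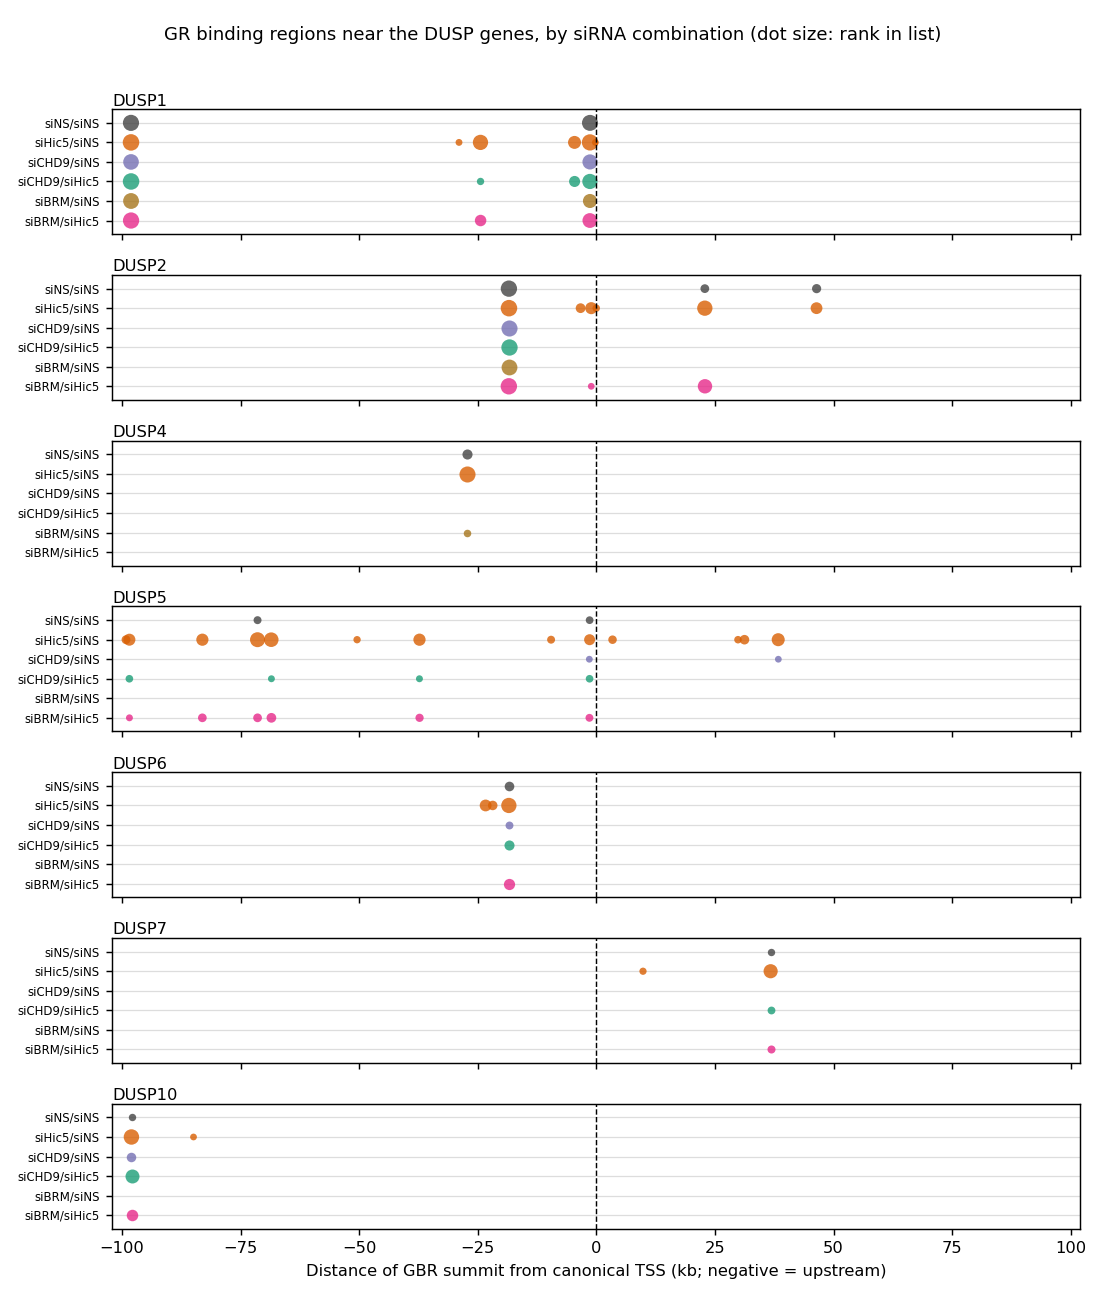
Distance of each GBR summit from the TSS in kb for the 7 MKP genes with a GBR, with a point for each of the 6 lists in which the locus was called, drawn larger where it ranked nearer the top of that list. DUSP5 has 13 loci, and the siHic5/siNS list has a point at all 33.

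DUSP1 (ENSG00000120129.6, chr5:172768096-172771195, − strand), whose product prefers p38 and JNK, had 6 loci. The site 1.34 kb upstream (chr5:172772111-172772953) was called in all 6 lists. It ranked 104 of 2582 in siNS/siNS, 194 of 9533 in siHic5/siNS, 145 of 1415 in siCHD9/siNS, 238 of 2451 in siCHD9/siHic5, 233 of 1278 in siBRM/siNS and 427 of 3383 in siBRM/siHic5. It was thus within the strongest 18.2% of each list, and its summit moved little between lists. Across all 33 loci the largest spread of summits between lists was 62 bp.

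The strongest DUSP1 locus lay 98.1 kb upstream (chr5:172868388-172869921), inside an intron of ERGIC1, whose own TSS was closer at 35.0 kb. Its rank was 75 in siNS/siNS, 19 in siHic5/siNS, 94 in siCHD9/siNS, 8 in siCHD9/siHic5, 66 in siBRM/siNS and 69 in siBRM/siHic5. In every list it was therefore among the strongest 6.64% of GBR. It lies just inside the 100 kb limit of the rule.

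The other 4 DUSP1 loci were absent from siNS/siNS and are called blocked GBR here, that is, called after depletion of Hic-5 with no overlapping peak in the control. This overlap of peak lists is not the quantitative DiffBind definition that the study also used for blocked GBR. The site 0.203 kb upstream, at the promoter, was called in siHic5/siNS only and ranked 9172 of 9533, near the bottom of that list. The site 24.4 kb upstream ranked 893 in siHic5/siNS and was also called in both combined depletions, at 1980 in siCHD9/siHic5 and 1299 in siBRM/siHic5. The site 4.6 kb upstream ranked 2546 of 9533 in siHic5/siNS and 1027 of 2451 in siCHD9/siHic5 and was not called in siBRM/siHic5. The site 28.9 kb upstream was called in siHic5/siNS only, at rank 8713.

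DUSP2 (ENSG00000158050.5, chr2:96143169-96145440, − strand), known from activated lymphocytes, also had 6 loci, 4 of them upstream. The locus 18.4 kb upstream (chr2:96163401-96164375) was called in all 6 lists and ranked 40 in siNS/siNS, 12 in siHic5/siNS, 47 in siCHD9/siNS, 44 in siCHD9/siHic5, 67 in siBRM/siNS and 36 in siBRM/siHic5. It was the strongest MKP locus in siHic5/siNS and lay within the strongest 5.24% of each list.

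The 2 downstream loci were called in siNS/siNS and in neither CHD9 list. The site 22.9 kb downstream ranked 1626 of 2582 in siNS/siNS, 877 of 9533 in siHic5/siNS and 531 of 3383 in siBRM/siHic5. The site 46.4 kb downstream ranked 1517 of 2582 in siNS/siNS and 3426 of 9533 in siHic5/siNS and was called nowhere else. Both carried a GRE with 0 mismatches, and for both the nearest protein-coding TSS was that of ADRA2B, an adrenergic receptor gene, at 6.0 kb and 17.5 kb.

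The site nearest the DUSP2 TSS, 0.021 kb upstream, was called in siHic5/siNS only at rank 7488. The 2 remaining upstream loci were blocked as well, at ranks 5073 and 3213 in siHic5/siNS, and the site 1.07 kb upstream was also called in siBRM/siHic5, at rank 3323 of 3383.

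DUSP5 (ENSG00000138166.6, chr10:110497907-110511533, + strand), a nuclear phosphatase selective for ERK, had 13 loci spread over 137 kb. Of all protein-coding genes only PTPN1 (14) had more GBR in siHic5/siNS, and ERGIC1 and CCDC57 had 13 as well. This look at other genes with as many GBR was added after the data were seen. The TSS of ERGIC1 lay 63.1 kb from that of DUSP1, so the 6 DUSP1 loci count for ERGIC1 too. In siNS/siNS DUSP5 had 2 GBR, against 8 for PTPN1, 5 for ERGIC1 and 4 for CCDC57.

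Both control DUSP5 loci were weak in siNS/siNS. The site 1.42 kb upstream of DUSP5 (chr10:110496011-110496707) ranked 1936 of 2582 in siNS/siNS, 4057 in siHic5/siNS, 1328 of 1415 in siCHD9/siNS, 1874 in siCHD9/siHic5 and 2471 in siBRM/siHic5, and was not called in siBRM/siNS. The site 71.4 kb upstream, the highest ranked DUSP5 locus in siHic5/siNS at 1115, ranked 1857 in siNS/siNS and 2139 in siBRM/siHic5 and was not called in the other lists.

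The other 11 DUSP5 loci were absent from siNS/siNS and ranked between 1360 and 7740 in siHic5/siNS. Of these, 4 were called in at least 1 combined depletion, and 6 were called in siHic5/siNS only. The remaining locus, 38.3 kb downstream, was called in siCHD9/siNS at rank 1384 of 1415, and its nearest TSS was that of SMC3. None of the 13 DUSP5 loci was called in siBRM/siNS. That list held 1278 GBR, against 9533 in siHic5/siNS. The share of all siHic5/siNS GBR missing from siBRM/siNS was not computed, so this is not read as a trait of DUSP5.

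**Figure D3:**
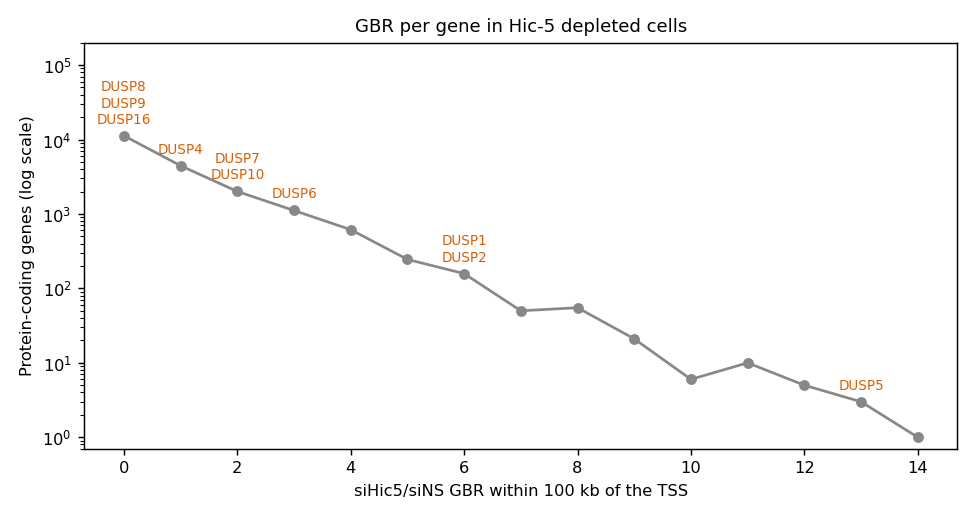
Number of protein-coding genes (log scale) by the number of siHic5/siNS GBR within 100 kb of their TSS, with the 10 MKP genes named at their own number. DUSP5 stands at 13, DUSP1 and DUSP2 at 6, and DUSP8, DUSP9 and DUSP16 at 0.

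DUSP4 (ENSG00000120875.9, chr8:29333064-29350684, − strand), a nuclear phosphatase for ERK, JNK and p38, had a single locus 27.2 kb upstream. It ranked 1296 of 2582 in siNS/siNS, 338 of 9533 in siHic5/siNS and 992 of 1278 in siBRM/siNS. It was called in none of the CHD9 lists and not in siBRM/siHic5. Among the 953 strongest 10% of siHic5/siNS GBR, 5 (0.525%) were absent from both combined depletions, and this locus was 1 of them. That comparison was chosen after the data were seen. With any annotated transcript start in place of the canonical TSS, there were 34 loci, and 7 members had a GBR in siBRM/siHic5. The number in siHic5/siNS stayed at 7, so the added gene was DUSP4. The calls above thus hold for its canonical TSS only.

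Among the cytoplasmic genes, DUSP6 (ENSG00000139318.8, chr12:89347235-89352501, − strand), a feedback inhibitor of ERK, had 3 loci. The site 18.4 kb upstream of DUSP6 (chr12:89370441-89371373) ranked 1404 in siNS/siNS, 882 in siHic5/siNS, 1031 of 1415 in siCHD9/siNS, 1237 in siCHD9/siHic5 and 1372 in siBRM/siHic5. It was missing from siBRM/siNS only. The sites 21.8 kb and 23.3 kb upstream were called in siHic5/siNS only, at ranks 5283 and 3412, and each held an AP-1 match in its 200 bp.

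DUSP7 (ENSG00000164086.10, chr3:52048919-52056571, − strand), the close relative of DUSP6, had 2 loci, both downstream. The site 36.7 kb downstream (chr3:52019311-52020096) ranked 2071 in siNS/siNS, 1678 in siHic5/siNS, 1811 in siCHD9/siHic5 and 2404 in siBRM/siHic5, and its nearest TSS was that of RPL29. It was absent from siCHD9/siNS and siBRM/siNS. The site 9.84 kb downstream was called in siHic5/siNS only, at rank 7895.

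DUSP9 (ENSG00000130829.18, chrX:153642492-153651326, + strand) had no GBR within 100 kb in any list. Its nearest siHic5/siNS GBR lay 125 kb away and ranked 6371.

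Of the JNK and p38-selective genes, DUSP10 (ENSG00000143507.18, chr1:221701424-221742089, − strand) had 2 distant loci. The site 98.0 kb upstream (chr1:221839681-221840388) ranked 2062 of 2582 in siNS/siNS, 777 of 9533 in siHic5/siNS, 786 of 1415 in siCHD9/siNS, 466 of 2451 in siCHD9/siHic5 and 1298 of 3383 in siBRM/siHic5. It was not called in siBRM/siNS. The site 84.9 kb upstream was called in siHic5/siNS only, at rank 9236. With a 50 kb limit DUSP10 had no GBR.

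DUSP8 (ENSG00000184545.11, chr11:1554051-1572271, − strand) and DUSP16 (ENSG00000111266.9, chr12:12473282-12562863, − strand) had no GBR within 100 kb. The nearest siHic5/siNS GBR lay 255 kb from DUSP8, at rank 683, and 164 kb from DUSP16, at rank 5586.

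**Figure D4:**
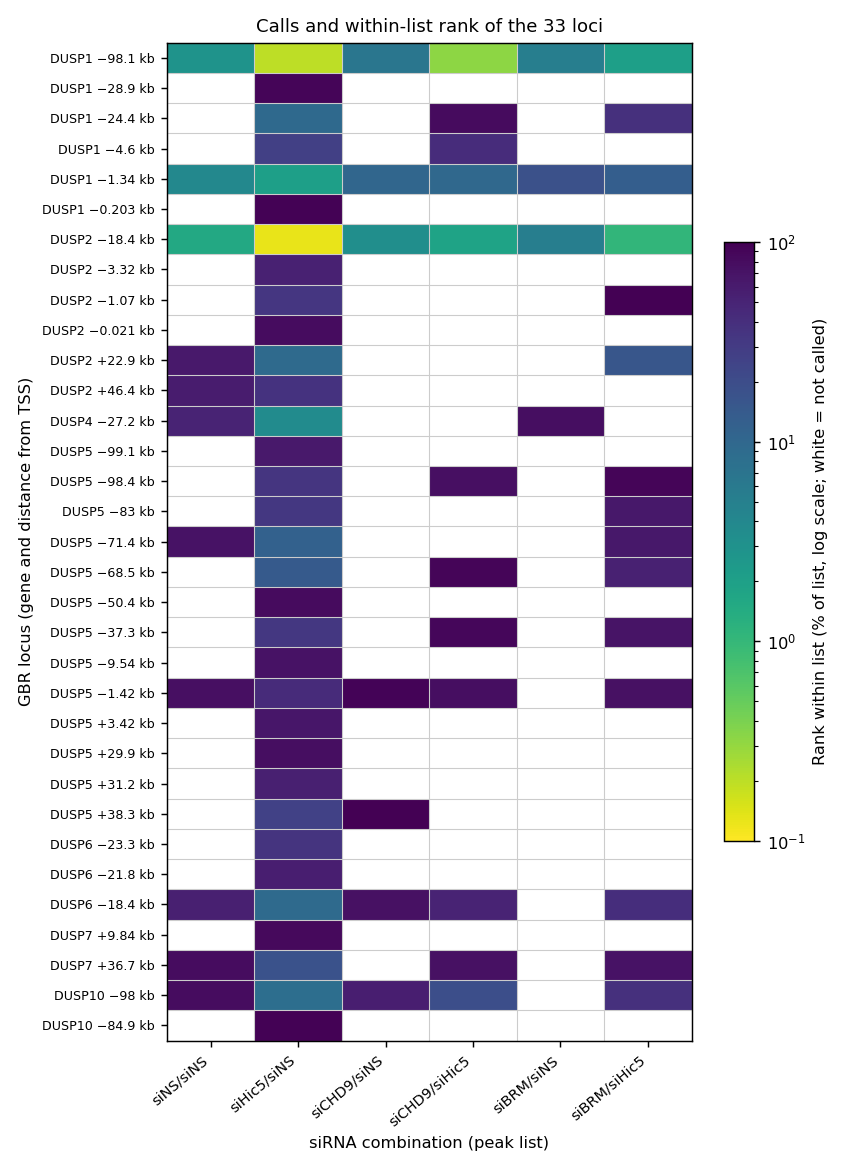
Rank of each of the 33 loci within each of the 6 lists, as percent of the list from the strongest (low) to the weakest GBR, with empty cells where no GBR was called. The loci 98.1 kb and 1.34 kb upstream of DUSP1 and 18.4 kb upstream of DUSP2 are filled in all 6 columns, and the siBRM/siNS column holds 4 values.

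The first question put to the lists was how much binding near the MKP genes was blocked by Hic-5. Of the 33 siHic5/siNS GBR, 22 (66.7%, 95% Wilson interval 49.6 to 80.2) had no overlapping siNS/siNS peak, against 74.0% of the whole list. None of the 11 siNS/siNS GBR near these genes was missing from siHic5/siNS, against 3.18% of the whole list. The blocked share near the MKP genes was thus close to that of the list, and the interval, which covers counting error only, included it. GBR of the same gene are not independent of each other.

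The second question was which of the GBR in Hic-5 depleted cells were missing when a remodeler was depleted too. Without CHD9, 21 of 33 (63.6%, 46.6 to 77.8) were not called, against 75.4% of the whole list. Without BRM, 18 of 33 (54.5%, 38 to 70.2) were not called, against 65.4%. Both lists lacked 17 of 33 (51.5%, 35.2 to 67.5), against 61.8%. All 3 shares lay below those of the list, and all 3 intervals held the value of the list.

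The calls were then split into the 22 blocked loci and the 11 shared with siNS/siNS. Of the 22 blocked loci, 15 were in neither combined depletion, 2 in siBRM/siHic5 only, 1 in siCHD9/siHic5 only and 4 in both. Those 4 were DUSP1 24.4 kb upstream and DUSP5 37.3 kb, 68.5 kb and 98.4 kb upstream. Over the whole list, 79.5% of blocked GBR were in neither, 11.1% in siBRM/siHic5 only, 3.8% in siCHD9/siHic5 only and 5.65% in both. Of the 11 shared loci, 7 were in both, 2 in siBRM/siHic5 only and 2 in neither, and none was in siCHD9/siHic5 only. Over the whole list, 64.7% of shared GBR were in both, 21.0% in siBRM/siHic5 only, 11.2% in neither and 3.07% in siCHD9/siHic5 only. The split by blocked and shared was thus present over the whole list as well.

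With Hic-5 present, depletion of CHD9 left 6 of the 11 control GBR, so that 5 of 11 (45.5%, 21.3 to 72.0) were not called, against 51.4% of the whole siNS/siNS list. Depletion of BRM left 4, so that 7 of 11 (63.6%, 35.4 to 84.8) were not called, against 52.2%. The 4 GBR left without BRM were the 3 loci called in all 6 lists and that of DUSP4. With 11 GBR the intervals are wide. Both shares are over the same 11 GBR, and a difference between the remodelers near these genes was not tested.

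Strength within the list moved with these calls. The 33 loci had a median −log10 p-value of 29.7 in siHic5/siNS (quartiles 17.7 and 63.6), against 22.4 over the list, and 8 of 33 were among its strongest 10%. The 22 blocked loci had a median of 20.6 and included 1 of these 8. The 11 shared loci had a median of 72.9 and included 7. Over the whole list the medians were 18.7 for blocked and 54.7 for shared GBR. Whether strength decided which loci were missing from another list was not tested.

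GRE matches were counted at the MKP loci and over the whole list. Of the 33 loci, 8 (24.2%, 12.8 to 41.0) held a GRE match in the 200 bp around the summit, against 46.1% of the whole siHic5/siNS list. DUSP5 held a match at 1 of its 13 loci, and the other members at 7 of 20 (35.0%). The interval treats neighboring loci of a gene as independent. In the 1 kb around the summit the numbers were 24.2% and 53.6%. Blocked loci held a match in 3 of 22 (13.6%, 4.75 to 33.3), against 41.1% of all blocked GBR, and shared loci in 5 of 11 (45.5%, 21.3 to 72.0), against 60.4% of all shared GBR. The GRE without mismatch was at 4 of 33 loci (12.1%, 4.82 to 27.3), against 10.6% of the list, and all 4 were shared loci of DUSP1 and DUSP2. A best match with 1 mismatch was at 4 of 33 loci and at 3386 of 9533 GBR.

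Matches to AP-1, the dimer of Jun and Fos proteins that MAP kinases act on, and to ETS factors, several of which are ERK substrates, were counted in the same windows. AP-1 matches were in 11 of 33 loci (33.3%, 19.8 to 50.4), against 19.4% of the list, and ETS matches in 8 of 33 (24.2%, 12.8 to 41.0), against 13.8%. In 1 kb windows both were at 18 of 33 (54.5%, 38 to 70.2), against 37.1% and 37.9%. Of the 8 loci with an ETS match, 7 were blocked, as were 79.5% of the GBR with a match over the whole list. No match of one motif overlapped a match of another. The median GC content of the 200 bp was 55.5% at the 33 loci and 48.5% over the list, and its part in these shares was not tested. A match is letters in a window and does not show that the factor was there.

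Other genes of the pathway are given by the number with a GBR within 100 kb. Of 10 MAP kinase genes, 3 had one in siNS/siNS and 6 in siHic5/siNS, with 2 in siCHD9/siHic5 and 4 in siBRM/siHic5. Of 7 MAP kinase kinase genes, the numbers were 1, 5, 3 and 3 in the same order. Of 14 atypical dual specificity phosphatase genes they were 3, 9, 3 and 5, and of 8 feedback inhibitors of the ERK pathway, the Sprouty and Spred genes and PEBP1, they were 1, 6, 2 and 1. With Hic-5 present and CHD9 depleted the 4 lists had 2, 1, 2 and 1 such genes, and with BRM depleted 2, 0, 1 and 1. Over all protein-coding genes the share was 17.1% in siNS/siNS and 43.7% in siHic5/siNS. It was 16.5% in siCHD9/siHic5, 22.2% in siBRM/siHic5, 10.5% in siCHD9/siNS and 9.95% in siBRM/siNS.

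The gene of each of these lists with the closest siHic5/siNS GBR was MAPK7, MAP2K1, DUSP23 and SPRED3. The GBR 1.27 kb upstream of DUSP23, an atypical phosphatase, was called in all 6 lists and ranked 496 in siHic5/siNS. That of MAP2K1, which activates ERK, lay 3.99 kb downstream of the TSS at rank 545, and was called in siHic5/siNS and both combined depletions. That of MAPK7 (8.55 kb downstream, rank 5481) was called in siHic5/siNS and siBRM/siHic5, and that of SPRED3 (12.8 kb upstream, rank 7365) in siHic5/siNS only.

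The genes most like DUSP1 in the strength of their strongest GBR were sought among the 1495 genes over 1 Mb away with a GBR in all 6 lists. The measure was the mean absolute difference, over the 6 lists, in the rank of that GBR as percent of the list. BIRC3 and BIRC2, neighbors that share the GBR, differed from DUSP1 by 0.599 percentage points, MTNR1A and its neighbor ENSG00000272297 by 0.797, and BATF by 0.965. In siCHD9/siHic5 the strongest DUSP1 GBR stood at 0.326% of the list, and those of these genes at 2.33%, 3.43% and 2.69%. The DUSP1 values in this measure belong to the locus 98.1 kb upstream.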

How the data were processed

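GR ChIP-seq was carried out in 12 ChIP libraries and 6 inputs, 2 and 1 per siRNA combination. The authors mapped the reads with BWA to GRCh38/hg38 and obtained peaks by running MACS2 on pooled replicates and then IDR. Versions and thresholds are not given in the sources used here. The deposited lists give a signal value (per the format a fold enrichment), a score, and, as −log10, the p-value and the q-value that the authors obtained for each peak. The signal and score columns were not used. Read depth is not in the lists, so each value is 1 pooled call set without replicate error.

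From the lists, summits within 100 kb of the canonical TSS (GENCODE 44, chromosomes 1 to 22 and X) of a member gene were taken, and peaks were matched between lists by an overlap of at least 1 bp. All 10 members are named. Single GBR are described where a gene had 4 or fewer, and otherwise the nearest, the highest ranked, those in all 6 lists and those in siNS/siNS. The other loci are given by counts and range, and those described singly beyond this rule (further blocked DUSP1 and DUSP2 sites, DUSP5 38.3 kb downstream, the 4 blocked sites in both combined depletions and those with a GRE) were chosen after their values were seen. The named pathway genes have the closest siHic5/siNS GBR of their list, and the 5 genes most like DUSP1 follow from the measure given there. Members and lists were chosen with earlier results of these data known. Shares have 95% Wilson intervals, which cover counting error only. Overlap and motif counting were tested on simulated data. Python 3.11.15, NumPy 2.4.6, pandas 2.3.3, SciPy 1.17.1, pysam 0.24.0 and Matplotlib 3.10.9 were used. Alternatives were other distances, starts, q-value thresholds, overlaps and motif settings. DiffBind comparisons and ATAC-seq were not used here.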

Additional observations from a re-analysis of the deposited data

How the results depend on the processing

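No paired analysis was possible because each list was made from pooled replicates, and for the same reason no replicate could be left out. Counts near the MKP genes depended on the distance and on the threshold, and 93 of 130 recomputed values stayed within 1.5 times the reported count or within the 95% interval of the reported share. For shares over 11 GBR these intervals are wide, 21.3 to 72.0 and 35.4 to 84.8. The alternative overlap settings returned every reported share unchanged. The tally is therefore no measure of stability. With a 200 kb limit there were 60 loci, with 58 GBR in siHic5/siNS, 23 in siBRM/siHic5, 19 in siCHD9/siHic5 and 7 in siBRM/siNS. With 50 kb siBRM/siHic5 had 9.

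At a common −log10 q-value of at least 14.2, GBR numbered 6 in siNS/siNS (at 4 member genes, with 7 in siHic5/siNS), 3 in siCHD9/siNS (at 2) and 6 in siCHD9/siHic5. At a −log10 q-value of at least 20 there were 20 loci, with 20 GBR in siHic5/siNS, 3 in siNS/siNS (at 2 genes), 3 in siCHD9/siNS (at 2) and 4 in siCHD9/siHic5 (at 3). The share of blocked GBR was then 85.0%, and the share not called was 80.0% without CHD9 and 35.0% without BRM. With Hic-5 present both shares were 0.0%, over 3 GBR. Whole-list shares were not recomputed at this threshold, so none of these shares can be set against the list.

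Among the 1000 strongest peaks of each list there were 8 loci, with 8 GBR in siHic5/siNS, 3 in siNS/siNS (at 2 genes), 4 in siCHD9/siNS (at 3), 4 in siCHD9/siHic5 (at 3) and 4 in siBRM/siHic5 (at 2). With Hic-5 present the shares not called without CHD9 and without BRM were again 0.0%, over 3 GBR. Here too no whole-list share was computed. The GRE share was 12.1% when no mismatch was allowed. With DUSP5 left out, an alternative chosen after seeing the data, the blocked share was 55.0% and the GRE share 35.0%. The stricter thresholds keep fewer GBR by construction. Weak sites missing from a list cannot be told from sites below its cutoff, and depth was not in the lists.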
